A study of Mus musculus with 19 samples.

Results

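The Wnt genes described here are 57 protein-coding genes of the Wnt pathway, read in bulk RNA-seq of whole obstructed mouse kidneys. They were chosen by name: the Wnt ligands, the Frizzled receptors and LRP co-receptors, the secreted antagonists (Sfrp, Dkk, Frzb and Wif1), the R-spondin arm (Rspo, Lgr4, Lgr5, Lgr6, Znrf3 and Rnf43), and 7 genes that act inside the cell (Porcn, Axin1, Axin2, Ctnnb1, Lef1, Tcf7l1 and Tcf7l2). The count table held 54532 genes, of which 33651 had at least 1 count. CD5L belongs to the scavenger receptor cysteine-rich family and is secreted by macrophages, and the study asked what its loss or its supply does to the kidney after unilateral ureteral obstruction (UUO), in which 1 ureter is tied off and the kidney behind it becomes fibrotic. All 19 kidneys came from male mice aged 8 to 9 weeks on a C57BL/6J background, had been obstructed and were taken on day 12 after surgery. They fell into 4 groups: WT given PBS (n = 5), WT given recombinant CD5L, rCD5L (n = 5), CD5L KO given PBS (n = 4) and CD5L KO given rCD5L (n = 5). Injections were intraperitoneal and daily, with 0.5 mg rCD5L each or the same volume of PBS. No unobstructed kidney was analysed here, so no value below measures the effect of obstruction itself.

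Wnt proteins are lipid-modified secreted ligands. They bind a Frizzled receptor together with LRP5 or LRP6, which keeps beta-catenin (Ctnnb1) from being degraded and lets it act with TCF/LEF factors in the nucleus; Axin2 is a widely used readout of that output. Sfrp proteins, Frzb and Wif1 bind Wnt ligands outside the cell, Dkk1, Dkk2 and Dkk4 bind the LRP co-receptors, and R-spondins raise Frizzled levels through LGR receptors by restraining the ubiquitin ligases ZNRF3 and RNF43. In the kidney, Wnt9b and Wnt4 direct nephron formation, and Wnt genes are known to be active again in tubules and stroma after injury.

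Depth ranged from 17917491 to 23847090 assigned counts per kidney. Cd5l itself had 0 counts in all 9 CD5L KO kidneys and 3 to 15 counts in the 10 WT kidneys, so the genotype labels held, at a low level of Cd5l RNA. The kidney of CD5L KO rCD5L replicate 4 stood apart from the other 18. Its summed CPM (counts scaled to the library total, so that kidneys can be compared) over 13 proximal tubule markers was 58430, against 3735 to 10050 in the others, and its sum over 10 fibroblast and myofibroblast markers was 1240, the lowest of all. It had the lowest library scaling factor (0.713), followed by CD5L KO rCD5L replicate 3 (0.89). Tests that use this group are therefore mostly given with and without these 2 kidneys, a choice made after the data were seen. Replicate 3 was unlike replicate 4 in its fibroblast and myofibroblast sum, 4675, the highest of its group.

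Promoter letters are shown for 3 genes that the results below return to: Frzb, the antagonist with the lowest p, Axin2, the pathway readout, and Sfrp5, an antagonist whose values lay on the other side. They were read from RefSeq (GRCm38.p6), which held a promoter window of 300 bases, from 250 before to 50 after the gene start, for 37 of the 57 genes. Capitals mark CTTTGA or CTTTGT on either strand (TCF/LEF-type letters) in Frzb, and GGGCGG on either strand (a GC box) in Axin2 and Sfrp5. For Frzb a stretch of 30 bases is given, and for Axin2 and Sfrp5 the 250 bases before the start.
Frzb, chr2:80447474-80447503, minus strand: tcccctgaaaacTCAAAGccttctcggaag
Axin2, chr11:108920099-108920348, plus strand: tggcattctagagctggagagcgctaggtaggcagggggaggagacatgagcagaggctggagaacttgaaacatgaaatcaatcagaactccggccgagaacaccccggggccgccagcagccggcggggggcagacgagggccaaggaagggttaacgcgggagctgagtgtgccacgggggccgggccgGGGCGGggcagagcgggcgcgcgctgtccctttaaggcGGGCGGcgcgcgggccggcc
Sfrp5, chr19:42202253-42202502, minus strand: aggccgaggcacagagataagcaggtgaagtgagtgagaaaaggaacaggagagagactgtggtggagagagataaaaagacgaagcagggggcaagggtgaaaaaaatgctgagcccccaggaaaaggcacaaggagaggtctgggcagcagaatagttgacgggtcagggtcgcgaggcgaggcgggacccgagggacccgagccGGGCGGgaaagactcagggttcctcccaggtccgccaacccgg
The Frzb match began 95 bases before the RefSeq start and lay inside the Frzb gene span of the count table (chr2:80411970-80447625). The Axin2 and Sfrp5 windows held no TCF/LEF-type letters. Over all 32851 mouse promoter windows 31.2% held TCF/LEF-type letters and 35.7% a GC box. Of 46 windows of the Wnt genes, 26.1% held the first and 71.7% the second. Such matches are letters only and are no measure of binding.

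Of the 57 genes, 47 passed the count filter in at least 1 comparison and 36 had a mean of at least 1 FPKM (the authors' fragment value scaled by gene length and library, on which genes can be set side by side). As a sum the secreted antagonists stood far above the ligands: their mean FPKM values summed to 121.9 over 10 genes, against 29.2 over 19 ligands, 85.8 over 10 Frizzled genes and 16.45 over the 2 LRP co-receptors. Among antagonists Sfrp1 (39.97), Dkk3 (36.3) and Frzb (24.1) led, and with Dkk2 (13.3) they made up most of that sum. The other antagonists, from Sfrp2 (3.11) downwards, lay below the ligands Wnt4, Wnt7b and Wnt10a. Dkk3 is a divergent Dkk family member whose place in Wnt signalling is less settled than that of the others. Wnt4, which marks early nephron and collecting duct epithelium and is also made by myofibroblasts, was the most expressed ligand at 8.39 FPKM, followed by Wnt7b at 3.7, a collecting duct ligand, and Wnt10a at 3.46. Fzd1 (34.8), Fzd4 (19.1) and Fzd7 (8.2) led the receptors. The co-receptors Lrp6 and Lrp5 stood at 10.1 and 6.31 FPKM. In the R-spondin arm the receptor Lgr4 (15.7) was far above the ligases Znrf3 (1.81) and Rnf43 (1.35) and above the R-spondins Rspo1 (1.28) and Rspo3 (1.26). Ctnnb1 had the highest level of all 57 at 109.9 FPKM and varied only from 91.2 to 119.5 between kidneys, while Axin1, a scaffold of the beta-catenin destruction complex, stood at 10.98 and Tcf7l1, a mostly repressive TCF factor, at 3.6.

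**Figure D1:**
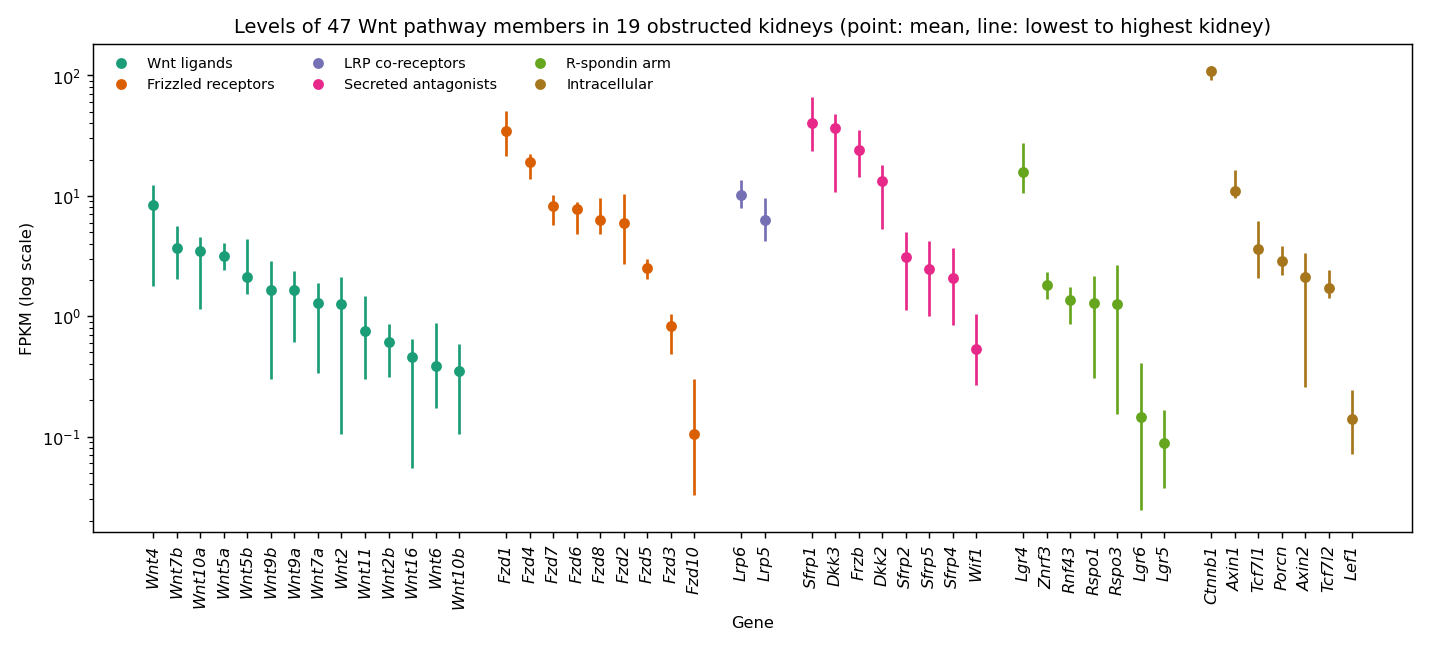
Level of the 47 tested Wnt genes in FPKM on a log axis, grouped by role, with the mean over 19 kidneys as a point and the lowest to highest kidney as a line. Ctnnb1 lies highest at 109.9 FPKM, and Sfrp1, Dkk3 and Frzb lie above every ligand, of which Wnt4 is highest at 8.39.

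The 10 genes that passed no filter were the ligands Wnt1, Wnt3, Wnt3a, Wnt8a and Wnt8b, the receptor Fzd9, the R-spondins Rspo2 and Rspo4, and the antagonists Dkk1 and Dkk4. Dkk4 had 0 counts in all 19 kidneys. The other 9 had at most 17 counts in any kidney and were not tested. Fzd9, the most counted of them, had 1 to 3 counts in WT and 4 to 9 counts in CD5L KO kidneys given PBS. In the WT and CD5L KO kidneys given rCD5L it had 3 to 17 and 2 to 10 counts. These are raw counts near the floor, from which no group difference is read.

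The first comparison asked what the lack of CD5L did, CD5L KO against WT with both given PBS. Frzb, Sfrp1 and Dkk3 fell in the CD5L KO kidneys, and these 3 were the only Wnt genes of 46 tested with an adjusted p under 0.05 (edgeR's quasi-likelihood test, Benjamini-Hochberg over 17579 genes). All 3 belong to the 8 secreted antagonists tested, and none of the 14 ligands, 8 Frizzled genes, 2 co-receptors, 7 genes of the R-spondin arm or 7 intracellular genes passed. Over all genes 5.4% were called lower, so 3 of 46 (6.52% of the Wnt genes tested) is a share near that of all genes. The median log2 fold change was -0.07 over the 46 Wnt genes and -0.00464 over all genes, with 15 higher and 31 lower.

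Frzb stood at 118, 117, 99.3, 138 and 117 CPM in the 5 WT kidneys and at 68.7, 75.3, 72.6 and 56.95 CPM in the 4 CD5L KO kidneys given PBS. The groups did not overlap: the highest CD5L KO kidney lay below the lowest WT kidney. The means were 117.7 ± 13.9 (SD, n = 5) and 68.4 ± 8.08 (SD, n = 4) CPM, and the log2 fold change was -0.79 (SE 0.0995, adjusted p = 0.00464 by edgeR). Frzb lies at chr2:80411970-80447625 (minus strand, GRCm38).

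Sfrp1, at chr8:23411502-23449632 (plus strand), stood at 234, 237, 207, 295 and 205 CPM in WT and at 191, 199, 146 and 162 CPM in CD5L KO kidneys given PBS. The gap between the groups was narrow, from 199 to 205 CPM. Its means were 235.7 ± 36.2 (SD, n = 5) and 174.2 ± 24.8 (SD, n = 4) CPM, a log2 fold change of -0.44 (SE 0.118, adjusted p = 0.0337 by edgeR).

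Dkk3, at chr7:112116017-112159057 (minus strand), stood at 178, 176, 152, 195 and 151.5 CPM in WT and at 146, 147, 122 and 112 CPM in CD5L KO. Again no CD5L KO kidney reached the lowest WT kidney. Its means were 170.4 ± 18.7 (SD, n = 5) and 131.7 ± 17.8 (SD, n = 4) CPM, and its log2 fold change was -0.38 (SE 0.101, adjusted p = 0.0341 by edgeR). Sfrp1 and Dkk3 were less firm than Frzb: each lost its call in 5 of the 9 fits that left out 1 kidney, while Frzb kept its call in all 9.

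Sfrp5, a close relative of Sfrp1, pointed the other way without passing. It stood at 4.38, 3.58, 3.24, 3.66 and 6.63 CPM in WT and at 6.2, 5.96, 7.1 and 9.94 CPM in CD5L KO, so the groups overlapped through WT replicate 5. The log2 fold change was 0.75 (SE 0.225, adjusted p = 0.0523 by edgeR). DESeq2 called it (adjusted p = 0.00958). The other antagonists showed smaller or less certain values: Dkk2 had a log2 fold change of -0.21 (adjusted p = 0.212), and Sfrp2, Sfrp4 and Wif1 lay between -0.06 and 0.11. Summed over the 10 antagonists the level per length was 119.6 to 162.0 FPKM in WT and 91.8 to 117.6 FPKM in CD5L KO, ranges that did not overlap; Sfrp1, Dkk3 and Frzb made up most of each sum.

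**Figure D2:**
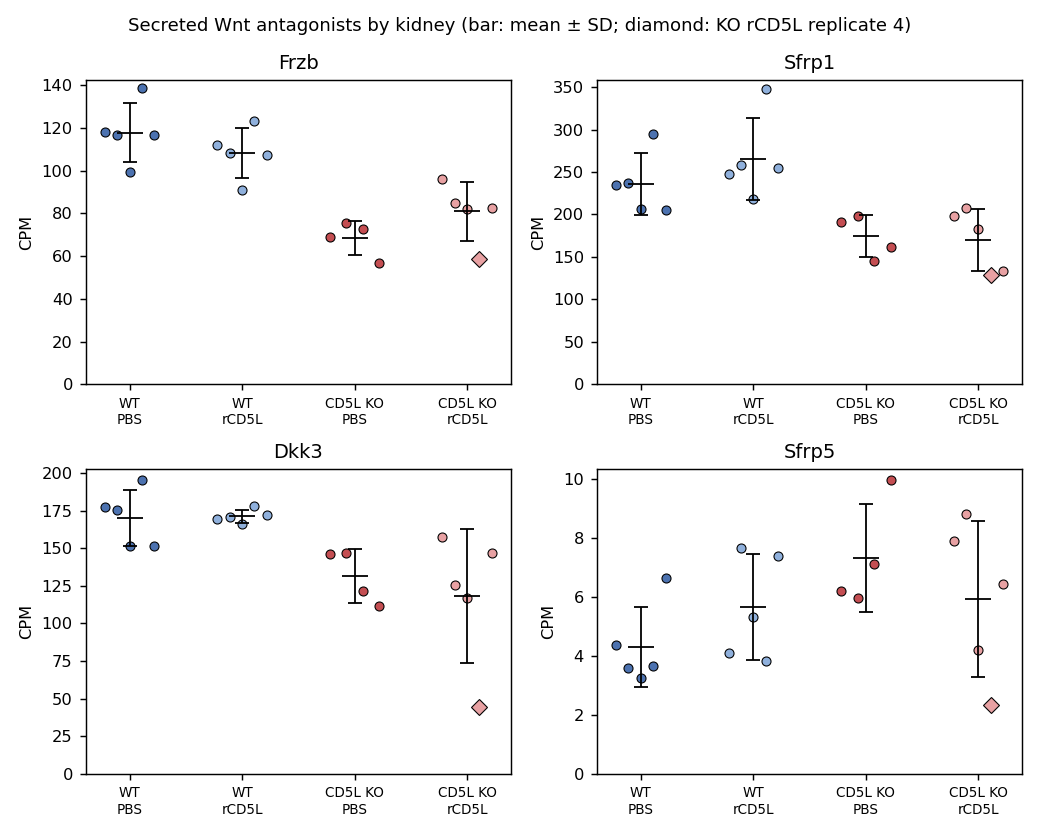
CPM of Frzb, Sfrp1, Dkk3 and Sfrp5 in each kidney, by group, with the mean ± SD as a bar and CD5L KO rCD5L replicate 4 as a diamond. Frzb, Sfrp1 and Dkk3 lie lower in CD5L KO than in WT kidneys given PBS with no overlap, while Sfrp5 lies at 3.24 to 6.63 CPM in WT and 5.96 to 9.94 CPM in CD5L KO.

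At an unadjusted p under 0.05 there were 7 Wnt genes of 46, against 26.6% of all genes. Besides the antagonists named above these were Lgr6, an R-spondin receptor (log2 fold change -1.50, SE 0.499, adjusted p = 0.0759), Fzd4, a receptor of endothelial cells (-0.20, SE 0.0658, adjusted p = 0.076) and Wnt4 (0.24, SE 0.099, adjusted p = 0.144), all by edgeR. Lgr6 is a rare transcript, at 1.15 to 3.39 CPM in WT and 0.208 to 1.39 CPM in CD5L KO. Wnt4 stood at 28.7 to 43.4 CPM in WT and 41.96 to 47.4 CPM in CD5L KO, overlapping ranges. Only 4 Wnt genes were lower in every CD5L KO kidney than in every WT kidney (6.84% of all genes were): Frzb, Sfrp1, Dkk3 and Tcf7l1. Tcf7l1 stood at 13.6 to 15.4 CPM against 15.6 to 17.6 CPM, and its adjusted p was 0.212.

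Axin2, the pathway readout, stood at 13.4, 13.3, 15.7, 21.9 and 15.6 CPM in WT and at 15.6, 13.2, 15.6 and 11.3 CPM in CD5L KO kidneys given PBS, and the ranges overlapped. Its log2 fold change was -0.20 (SE 0.153, adjusted p = 0.447 by edgeR). Ctnnb1 differed by 0.01 (SE 0.05, adjusted p = 0.928) and Lef1, a TCF/LEF factor, by -0.27 (SE 0.346, adjusted p = 0.673).

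Further pathway genes from lists beyond the 57 were read from the same fit, in which 5.4% of all genes were called lower. Of 30 tested cytoplasmic and nuclear genes 4 were called, all lower: Tle1, a co-repressor that TCF factors recruit (log2 fold change -0.41, adjusted p = 0.00607), the kinases Csnk1e and Gsk3b, and Apc, a scaffold of the destruction complex. Of 14 planar polarity genes and alternative receptors 3 were called, all lower: the giant cadherins Dchs1 (-0.55, adjusted p = 0.0112) and Fat4, and the receptor-like Ptk7. Of 18 tested reported Wnt targets 2 were called, both lower. Of these Fn1, which encodes the matrix protein fibronectin and is also a typical product of fibrotic tissue, had a log2 fold change of -0.62 (adjusted p = 0.0164). None of 13 tested genes of Wnt secretion and the extracellular space was called. Of the 57 Wnt genes 4 lie on chromosome 3 with Cd5l (Sfrp2, 3.58 Mb away, Wnt2b, Lef1 and Dkk2), and none of these was called.

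In whole-kidney RNA, fewer cells of a type and less RNA per cell cannot be told apart, and markers of stroma and vessels moved with the same comparison. The summed CPM of the 10 fibroblast and myofibroblast markers was 3558 to 5416 in WT and 2522 to 3468 in CD5L KO kidneys given PBS, and that of the 8 endothelial markers was 723.9 to 834.2 and 606.1 to 685.0. Neither pair of ranges overlapped, and 5 of 10 and 4 of 8 of these markers were called lower, beside 5.4% of all genes, among them Pdgfra, Pdgfrb and Col3a1. The sums over proximal tubule markers, 4551 to 9300 and 4430 to 9257, covered the same range, and 1 of these 13 markers, the sulfate transporter gene Slc13a1, was called higher. Of the 6 podocyte markers 5 had lower values (median log2 fold change -0.17, 1 called), as did 6 of 7 macrophage markers (-0.10, 1 called), and the 7 urothelial markers all had higher values (0.75, 0 called). The part of these marker levels in the Frzb, Sfrp1 and Dkk3 values was not tested.

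The same genotype contrast was measured in separate mice that had received rCD5L. None of 46 Wnt genes was called by edgeR, as none (0%) was among all 17360 genes tested, and none of the Wnt genes was called by DESeq2, against 0.387% of all genes. The kidneys of this contrast were more scattered, with a common biological coefficient of variation of 27.0% against 12.6% under PBS. There were 6 Wnt genes with an unadjusted p under 0.05, all lower in CD5L KO (6.8% of all genes were lower at that level), and they included 2 of the 3 genes called under PBS.

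Sfrp1 stood at 247, 258, 219, 348 and 254 CPM in WT and at 198, 207, 183, 129 and 133 CPM in CD5L KO kidneys given rCD5L. No CD5L KO kidney reached the lowest WT kidney, and the log2 fold change was -0.65 (SE 0.17, unadjusted p = 0.00272, adjusted p = 0.26 by edgeR). Without CD5L KO rCD5L replicates 3 and 4 it was -0.57 (adjusted p = 0.0562). With any 1 kidney left out instead, the adjusted p of Sfrp1 by edgeR was at least 0.164.

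Frzb stood at 112, 108, 91.1, 123 and 107 CPM in WT and at 96.2, 84.7, 82.05, 58.8 and 82.5 CPM in CD5L KO given rCD5L. Only CD5L KO replicate 1 reached into the WT range. The log2 fold change was -0.43 (SE 0.129, unadjusted p = 0.00641, adjusted p = 0.26 by edgeR) and -0.31 without those 2 kidneys (adjusted p = 0.0628). With any 1 kidney left out instead, the adjusted p of Frzb by edgeR was at least 0.164.

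Dkk3 stood at 170, 171, 166.5, 178 and 172 CPM in WT and at 158, 126, 117, 44.5 and 147 CPM in CD5L KO given rCD5L. The WT kidneys were tightly grouped, and all 5 CD5L KO kidneys lay below them, with replicate 4 far below the rest. Its log2 fold change was -0.54 (SE 0.253, unadjusted p = 0.0537, adjusted p = 0.285 by edgeR), and -0.27 (SE 0.07, adjusted p = 0.0536) without replicates 3 and 4. Dkk3 and Sfrp1 were the 2 Wnt genes whose groups did not overlap downwards, a pattern seen in 3.09% of all genes.

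The other 4 of the 6 were the receptors Fzd3 (log2 fold change -0.46, unadjusted p = 0.0179) and Fzd6 (-0.33, unadjusted p = 0.0363), both linked to planar polarity, the TCF factor Tcf7l2 (-0.26, unadjusted p = 0.0434) and the ligase Rnf43 (-0.38, unadjusted p = 0.0487), with adjusted p by edgeR from 0.26 to 0.279. Without the 2 kidneys Fzd6 was at -0.15 (adjusted p = 0.33), Fzd3 at -0.25 (adjusted p = 0.218), Tcf7l2 at -0.34 (adjusted p = 0.099) and Rnf43 at -0.35 (adjusted p = 0.221). Of the 46 genes 40 had lower values in CD5L KO, with a median of -0.19 against -0.01 over all genes; without the 2 kidneys 35 were lower, with a median of -0.14, 8 had an unadjusted p under 0.05, all lower (10.7% of all genes were lower at that level in this fit), and 0 were called, against 3.58% of all genes. Sfrp5, higher in CD5L KO under PBS, stood at 3.83 to 7.65 CPM in WT and 2.35 to 8.79 CPM in CD5L KO given rCD5L, overlapping ranges, with CD5L KO replicates 3 and 4 the lowest of their group. Its log2 fold change was 0.07 (SE 0.332, adjusted p = 0.918 by edgeR), and 0.44 (SE 0.227, adjusted p = 0.287) without replicates 3 and 4.

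Axin2 stood at 15.6, 14.4, 15.6, 22.1 and 14.2 CPM in WT and at 14.9, 12.1, 15.1, 1.76 and 7.78 CPM in CD5L KO kidneys given rCD5L. CD5L KO replicates 2, 4 and 5 lay below all WT kidneys, and replicates 1 and 3 lay within their range. The log2 fold change was -0.67 (SE 0.402, adjusted p = 0.378 by edgeR), and -0.51 (SE 0.195, unadjusted p = 0.0218, adjusted p = 0.153) without replicates 3 and 4.

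Of the cell type markers 0 were called by edgeR in this contrast. The 10 fibroblast and myofibroblast markers all had lower values in CD5L KO (median log2 fold change -0.39), as did the 6 podocyte markers (-0.36), the 7 T cell markers (-0.34), the 7 macrophage markers (-0.17) and 7 of 8 endothelial markers (-0.23). The 13 proximal tubule markers all had higher values (1.89), with replicate 4 included, as did 6 of 7 urothelial markers (0.41). The part of these in the Wnt values was not tested.

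**Figure D3:**
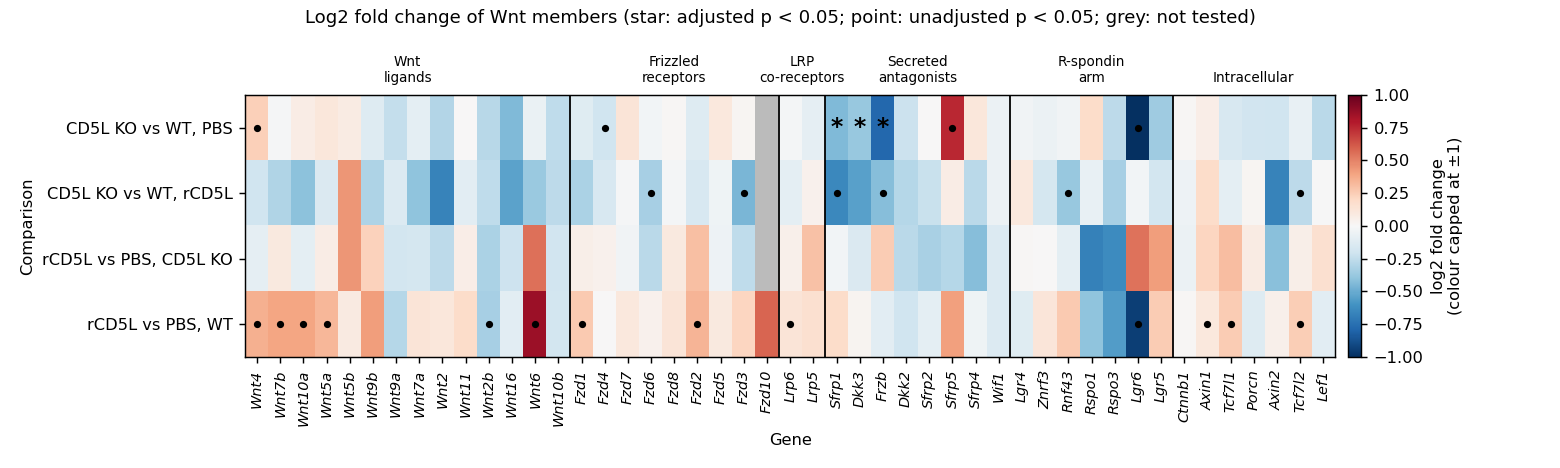
Log2 fold change of the 47 tested Wnt genes (columns, by role) in 4 pairwise comparisons (rows), with colour capped at 1 in either direction, a star for an adjusted p under 0.05, a point for an unadjusted p under 0.05 and grey for not tested. Stars appear at Frzb, Sfrp1 and Dkk3 in CD5L KO against WT under PBS, and 11 of the 13 points in rCD5L against PBS in WT lie on higher values.

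Supplying rCD5L to WT mice was read from the 10 WT kidneys. None of 47 Wnt genes was called by edgeR, and none (0%) of 17455 genes was. At an unadjusted p under 0.05 there were 11 Wnt genes higher with rCD5L, against 8.31% of all genes, and 2 lower, against 7.71%. The 11 included 5 ligands, Wnt4, Wnt5a, Wnt6, Wnt7b and Wnt10a, and the receptors Fzd1 and Fzd2. All 9 tested Frizzled genes had a higher value with rCD5L, and the median over the 47 genes was 0.11 against 0.00456 over all genes. DESeq2, run as an alternative, called Fzd2, Wnt10a and Wnt4, all higher, of 37 Wnt genes to which it gave an adjusted p, against 1.61% of all genes called higher.

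Fzd2, a receptor used in mesenchymal cells, stood at 23.1, 25.2, 22.3, 27.8 and 24.6 CPM with PBS and at 28.7, 30.1, 28.6, 36.9 and 29.7 CPM with rCD5L in WT. Every rCD5L kidney lay above every PBS kidney, as for Wnt10a and Wnt4 among the Wnt genes and for 1.47% of all genes. The log2 fold change was 0.34 (SE 0.0823, adjusted p = 0.113 by edgeR and 0.0172 by DESeq2).

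Wnt10a stood at 8.09, 9.3, 10.9, 10.7 and 9.18 CPM with PBS and at 11.9, 12.5, 12.4, 12.1 and 13.5 CPM with rCD5L. Its log2 fold change was 0.39 (SE 0.0967, adjusted p = 0.113 by edgeR and 0.018 by DESeq2).

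Wnt4 stood at 28.7, 37.2, 40.3, 43.4 and 39.3 CPM with PBS and at 47.6, 48.5, 45.3, 53.2 and 44.3 CPM with rCD5L. The lowest rCD5L kidney was just above the highest PBS kidney. Its log2 fold change was 0.35 (SE 0.0909, adjusted p = 0.117 by edgeR and 0.0225 by DESeq2).

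Wnt5a, a ligand of the beta-catenin-independent branch, Wnt7b, Tcf7l2, Fzd1 and Tcf7l1 followed, with log2 fold changes of 0.33, 0.39, 0.25, 0.26 and 0.25, overlapping groups and adjusted p by edgeR from 0.147 to 0.241. The remaining 5 were Wnt6, Lrp6 and Axin1 on the higher side and Lgr6 and Wnt2b on the lower side. Axin2 stood at 14.2 to 22.1 CPM with rCD5L and 13.3 to 21.9 CPM with PBS, a log2 fold change of 0.05 (SE 0.149, adjusted p = 0.901 by edgeR). The antagonists called in the genotype comparison had log2 fold changes of 0.18 for Sfrp1, -0.11 for Frzb and 0.02 for Dkk3. The 13 proximal tubule markers all had lower values with rCD5L in WT, with summed CPM of 3735 to 5953 against 4551 to 9300. The 7 T cell markers all had higher values (median log2 fold change 0.41, summed CPM of 48.1 to 88.99 against 34.6 to 75.9), and 7 of 8 endothelial markers had lower ones (-0.12, summed CPM of 673.4 to 724.8 against 723.9 to 834.2), as did the 7 urothelial markers (-0.20). Of 11 epididymis markers 5 were tested, all with higher values (0.70), at a summed CPM of 17.7 to 42.2 against 13.2 to 26.5. Of these markers 0 were called by edgeR, and the part of their levels in the Wnt values was not tested.

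**Figure D4:**
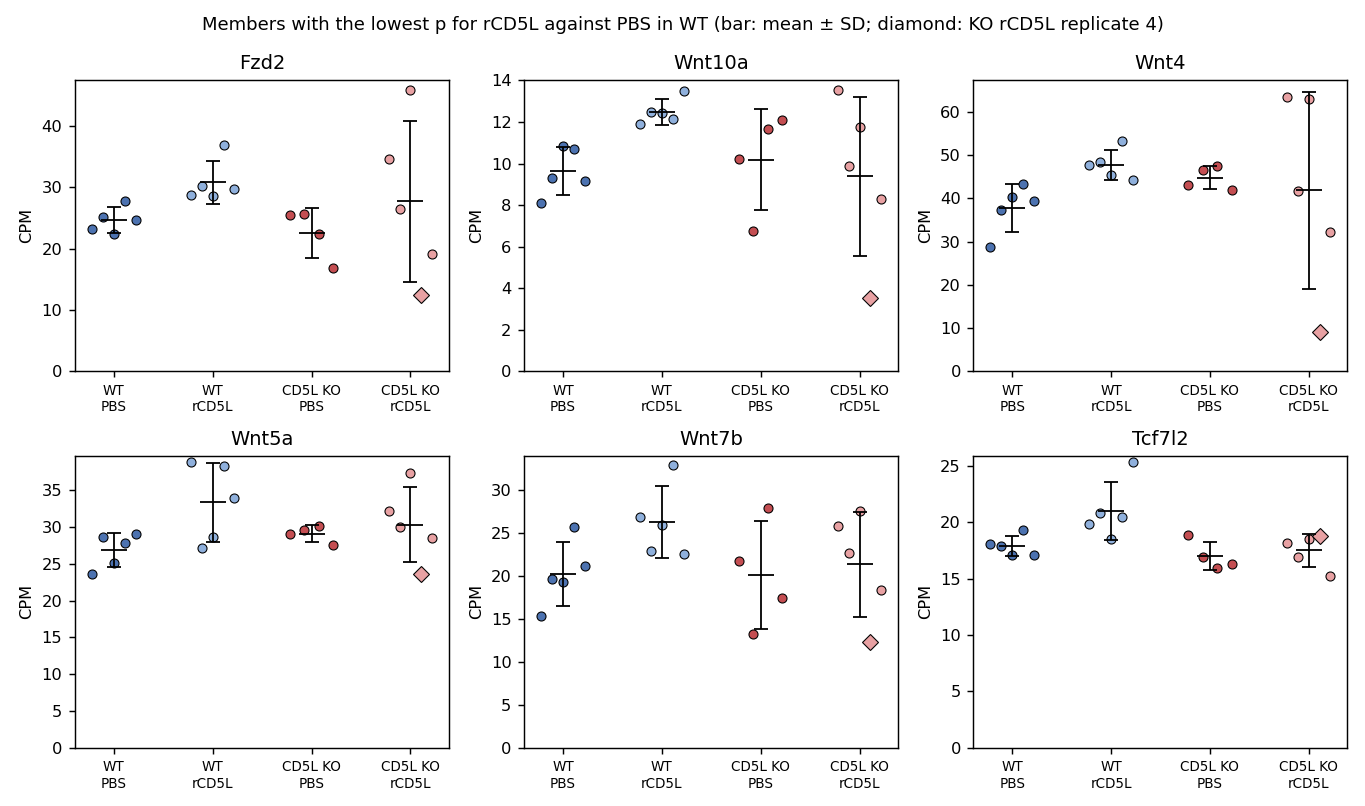
CPM of Fzd2, Wnt10a, Wnt4, Wnt5a, Wnt7b and Tcf7l2 in each kidney by group, with the mean ± SD as a bar and CD5L KO rCD5L replicate 4 as a diamond. In WT every rCD5L kidney lies above every PBS kidney for Fzd2, Wnt10a and Wnt4, and the CD5L KO rCD5L kidneys spread widely, from 9.16 to 63.4 CPM for Wnt4.

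In CD5L KO mice rCD5L was compared with PBS over 5 and 4 kidneys. None of 46 Wnt genes was called by edgeR or DESeq2, none (0%) of 17467 genes was called by edgeR, and 0 Wnt genes had an unadjusted p under 0.05, against 2.87% of all genes. The lowest p was that of Frzb, at 68.7, 75.3, 72.6 and 56.95 CPM with PBS and 96.2, 84.7, 82.05, 58.8 and 82.5 CPM with rCD5L. Of the 5 rCD5L kidneys 4 lay above all PBS kidneys and replicate 4 lay among them. The log2 fold change was 0.25 (SE 0.147, unadjusted p = 0.112, adjusted p = 0.897 by edgeR). Without replicates 3 and 4 the 3 remaining rCD5L kidneys all lay above the PBS kidneys, and the log2 fold change was 0.37 (SE 0.0993, unadjusted p = 0.00365, adjusted p = 0.397). Frzb and Rspo3 then were the 2 Wnt genes of 46 with an unadjusted p under 0.05, against 9.76% of all genes in this fit, and 0 were called. Rspo3 went the other way, with a log2 fold change of -0.94 (SE 0.323, unadjusted p = 0.0144, adjusted p = 0.419 by edgeR). Sfrp1 (146 to 199 with PBS, 129 to 207 CPM with rCD5L) and Dkk3 (112 to 147 and 44.5 to 158 CPM) had overlapping ranges. Their log2 fold changes were -0.02 and -0.15, and 0.05 and 0.13 without replicates 3 and 4, with adjusted p by edgeR from 0.754 to 0.989. The common biological coefficient of variation was 28.8% in this contrast, against 11.6% for rCD5L in WT. The summed CPM of the epididymis markers was 26.5 to 63.4 with rCD5L and 8.87 to 23.1 with PBS in CD5L KO, ranges that did not overlap. With rCD5L 12 of 13 proximal tubule markers had higher values (median log2 fold change 1.39), with replicate 4 included. Their summed CPM was 58430 in replicate 4 and 4837 to 10050 in the rest of the rCD5L group, against 4430 to 9257 with PBS. Lower values were seen for 7 of 7 urothelial (-0.49) and 7 of 8 endothelial markers (-0.04). Of these markers 0 were called by edgeR, and their part in the Wnt values was not tested.

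Within this group, replicate 4 had the lowest CPM of all 19 kidneys for 30 of the 47 tested Wnt genes, and no other kidney was lowest for more than 5. Its Axin2 was 1.76 CPM against 7.78 to 22.1 CPM in the other 18, its Wnt4 was 9.16 CPM against 28.7 to 63.4 CPM, and its Wnt9b, a collecting duct ligand, was 1.69 CPM against 5.41 to 15.7 CPM. It was the highest for 3 genes, Lgr4 (198 CPM, against 76.1 to 144 CPM), Wnt5b (14.5 CPM, against 4.83 to 7.95 CPM) and Lrp6 (228.0 CPM, against 132.2 to 188.2 CPM). The median coefficient of variation over Wnt genes was 37.9% in CD5L KO given rCD5L, against 13.8% in WT given PBS, 14.3% in WT given rCD5L and 14.2% in CD5L KO given PBS. The macrophage marker sum of replicate 4 was 518.4 CPM, against 1079 to 1741 CPM elsewhere. Its sum over collecting duct principal cell markers, 557.3 CPM, lay within the 322.1 to 802.9 CPM of the other kidneys. Its sum over loop and distal nephron markers, 6095 CPM, was the highest, against 1836 to 3761 CPM. The part of the cell type markers in its Wnt values was not tested.

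**Figure D5:**
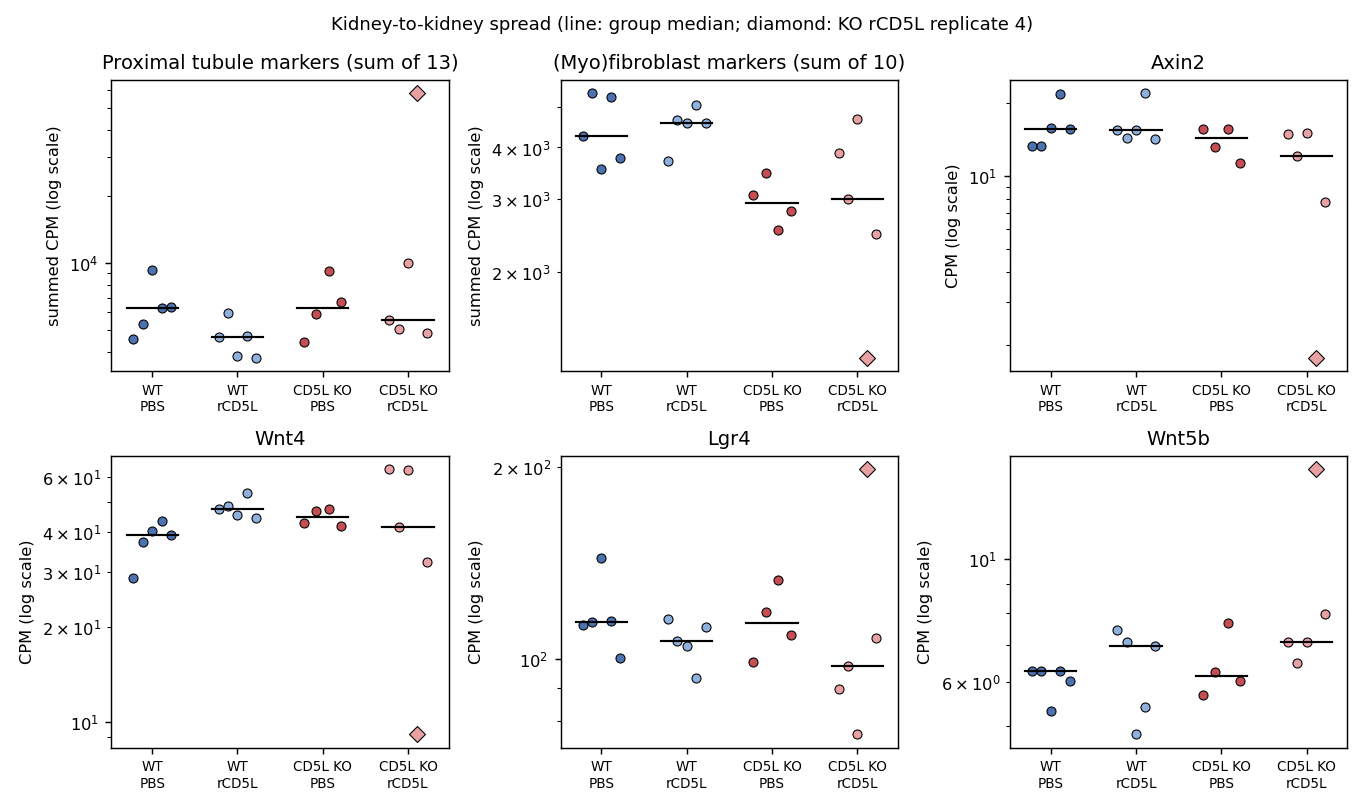
Summed CPM of proximal tubule and of fibroblast and myofibroblast markers, and CPM of Axin2, Wnt4, Lgr4 and Wnt5b, in each kidney by group on log axes, with the group median as a line. The diamond, CD5L KO rCD5L replicate 4, lies at 58430 for proximal tubule markers and 1240 for fibroblast markers, lowest for Axin2 (1.76 CPM) and Wnt4 (9.16 CPM) and highest for Lgr4 (198 CPM) and Wnt5b (14.5 CPM).

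Whether rCD5L acted differently in the 2 genotypes was tested by the interaction term over all 19 kidneys. None of 47 Wnt genes was called by edgeR or DESeq2, and none (0%) of 18454 genes was called by edgeR. There were 3 Wnt genes with an unadjusted p under 0.05, against 6.25% of all genes: Lgr6 (interaction of 1.51 on the log2 scale, SE 0.635), Fzd3 (-0.46, SE 0.204) and Frzb (0.38, SE 0.171), each with an adjusted p of 0.731. Without CD5L KO rCD5L replicates 3 and 4, Frzb was at 0.48 (SE 0.142, unadjusted p = 0.00324, adjusted p = 0.965), Lgr6 at 1.44 (SE 0.675, unadjusted p = 0.0462, adjusted p = 0.965), Fzd3 at -0.26, and 0 genes were called among the Wnt genes. Fzd6 (-0.30, unadjusted p = 0.0737) and Sfrp5 (-0.67, unadjusted p = 0.135) came next, and stood at -0.12 (unadjusted p = 0.248) and -0.32 (unadjusted p = 0.374) without those 2 kidneys. The rCD5L effects on Fzd2, Wnt10a and Wnt4 in WT were thus not shown to differ from those in CD5L KO, with interactions of -0.01, -0.47 and -0.42 and adjusted p from 0.747 to 0.993, and of -0.09, -0.32 and -0.31 without those 2 kidneys (adjusted p from 0.969 to 0.986). Marker interactions are given only with CD5L KO rCD5L replicate 4 included, whose summed proximal tubule CPM was 58430, against 4837 to 10050 in the rest of its group. Over all 19 kidneys the interaction was above 0 for all 13 proximal tubule markers (median 1.95, 11 with an unadjusted p under 0.05) and all 8 endothelial markers (0.08). It was below 0 for all 7 T cell (-0.49), all 7 urothelial (-0.22) and all 6 podocyte markers (-0.17). Of these 0 were called by edgeR, and their part in the Wnt values was not tested.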

How the data were processed

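Whole obstructed kidneys were measured by bulk RNA-seq. Per the labels and the study's methods, the authors trimmed reads with Trimmomatic, aligned them to GRCm38 (mm10) with HISAT2 and counted them with featureCounts; versions and strand setting are not given in the sources used here. The deposited tables hold raw counts and FPKM per gene for each kidney; the authors' FPKM is per gene length and library. All sample columns were matched to a sample by name.

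From the counts, genes were kept by filterByExpr (minimum count 10), scaled by TMM and tested with edgeR 4.0.16 (R 4.3.3; glmQLFit, glmQLFTest) on the groups compared, or on all 19 kidneys for the interaction. Adjusted p is Benjamini-Hochberg over all genes tested, and a gene is called under 0.05. CPM uses TMM-scaled totals. A fold change is CD5L KO relative to WT, or rCD5L relative to PBS. p-values measure the spread between kidneys, each labelled a biological replicate. Scripts were tested on simulated data.

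Alternatives were DESeq2 1.42.0, RLE factors, other filters, all 19 kidneys in 1 fit, a replicate block, a gene length offset, limma 3.58.1 on log2(FPKM + 1) or log2(FPKM + 0.1) with a minimum of 0.5 FPKM or no filter, and leaving out kidneys. Named genes are those called, up to 8 others with an unadjusted p under 0.05, up to 3 of highest FPKM per role, those that passed no filter, the 5 of lowest interaction p and those with a kidney far from its group; from other lists, up to 5 called genes. Other genes are named where a count is spelled out, or as readouts, and were then chosen after their values were seen. The Wnt genes and all lists were chosen with earlier results of these data known. A result for a further pathway gene is not reported here.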

Additional observations from a re-analysis of the deposited data

Results flagged for a closer look

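Within the 4 groups, 188 sets of CPM values (47 Wnt genes in each group) were searched for a kidney far from the rest of its group by Dixon's criterion, which flags about 1 set in 20 by chance; 9 were found. In CD5L KO given rCD5L, replicate 4 had Lgr4 at 198 CPM (others 76.1 to 108) and Wnt5b at 14.5 CPM (others 6.51 to 7.95), and this is the kidney with the high proximal tubule markers. In WT given PBS, replicate 4 had Axin1 at 51.6 CPM (others 45.9 to 47.03) and Axin2 at 21.9 CPM (others 13.3 to 15.7), replicate 3 had Wnt5b at 5.33 CPM (others 6.03 to 6.29), and replicate 1 had Wnt11 at 5.08 CPM (others 3.05 to 3.45) and Fzd10 at 0.221 CPM (others 0.417 to 0.484). In WT given rCD5L, replicate 4 had Fzd2 at 36.9 CPM (others 28.6 to 30.1) and Axin2 at 22.1 CPM (others 14.2 to 15.6). No set was found in CD5L KO given PBS.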

How the results depend on the processing

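The count of Wnt genes called in CD5L KO against WT under PBS (3, beside 1850 calls in either direction over all 17579 genes) was 5 with DESeq2 (17.8% of all genes), 5 with no filter (5.03%), 1 with all 19 kidneys in 1 fit (Frzb, beside 12 calls over all genes), 1 on FPKM with no filter (3.06%) and 6 (22.1%) with both treatments and treatment as a term without CD5L KO rCD5L replicates 3 and 4, an alternative chosen after seeing the data. Leaving out each kidney in turn gave 1 to 4, beside 5.81% to 11.8% of all genes; it was 1, Frzb alone, without CD5L KO PBS replicate 3 or 4 or WT PBS replicate 2 or 4, and without WT PBS replicate 1 Sfrp1 and Dkk3 were also lost. Frzb was called in all 23 alternatives, Sfrp1 and Dkk3 in 15 each, and Sfrp5 in 8. Lgr6 was called in 4 of 20, Fzd4 in 3 of 23 and Tcf7l2 in 1 of 23. The log2 fold change of Lgr6 ran from -2.09 to -0.193 over its alternatives, and that of Wnt4, with 0 calls, from 0.0251 to 0.294. With rCD5L, the count of 0 became 2 (Frzb and Sfrp1) with all 19 kidneys in 1 fit, beside 1291 calls over all genes, and 1 (Sfrp1) in that fit without the same 2 kidneys, beside 878; for rCD5L in WT it became 3 with DESeq2 (3.82% of all genes). The cause was not tested. In the other contrasts, and leaving out any kidney, it stayed 0. Fold changes were followed under the alternatives for 30 pairs of gene and contrast, picked for an unadjusted p under 0.05 by edgeR or a call that changed. None of the 30 turned direction, but picking them so favours large changes, so this does not test how stable directions are. The fold change of Axin2 was not among them, nor were those of Sfrp1 and Dkk3 for rCD5L in CD5L KO. These last 2, neither called, went from -0.02 and -0.15 to 0.05 and 0.13 without the same 2 kidneys. The fold change in CD5L KO against WT under PBS fell with gene length (Spearman's rho of -0.277 across 17579 genes, which are not independent), and a length offset still gave 3 calls. That rho was -0.276 in the same contrast under rCD5L and 0.24 for rCD5L in WT, where 32 of 47 Wnt genes had higher values, and the offset gave 0 calls in both.

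Groups share replicate numbers. Correlations of same-numbered kidneys ran from -0.22 to 0.31, not every kidney correlated best with its own number, and no label gives the numbers a meaning, so they share only a number. A fit with the replicate block gave 5 Wnt genes called under PBS, beside 2132 calls over all genes against 1850 without it, and 0 Wnt genes in the other contrasts, where it called 0 of all genes.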
